A study of Mus musculus with 10 samples.

Results

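The genes described are the Notch receptors *Notch1*, *Notch2* and *Notch3*, the ligands *Jag1*, *Jag2*, *Dll1* and *Dll4*, and the targets *Hey1*, *Hey2* and *Hes1*, 10 of 21938 protein-coding genes, in ATAC-seq peak lists of the embryonic mouse heart. All accessible regions whose summit lay inside a gene or within 25 kb of it were assigned to that gene, which gave 166 of 184764 regions and 1075 of 1071660 summits. Cells were sorted from Rosa26tdTomato;Wt1CreERT2/+ embryos (C57BL/6J) whose mothers received tamoxifen by gavage at E9.5, so that every group carried the same alleles and treatment. The groups were CD31-tdTomato+PDPN+ epicardium at E11.5 (3 libraries, 6 pooled hearts each) and at E17.5 (3 libraries, 4 pooled hearts each), and CD31-tdTomato+PDPN- epicardium-derived cells (EPDCs), 1 library from E12.5 and 2 from E13.5 (pooled hearts). Labelling depended on *Wt1* being active when tamoxifen acted, hearts of littermates were pooled, and biological replicates were independent pools. No unlabelled control was part of the design, and E13.5 epicardium was not analysed here.

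Notch receptors are membrane proteins that are cleaved when a Jagged or Delta-like ligand on a neighbouring cell engages them. The released intracellular domain joins the DNA-binding protein RBPJ and Mastermind proteins and switches on target genes, among them the *Hes* and *Hey* repressors. In the embryonic heart the pathway is best known for endocardial, valve and coronary vessel development, and it also acts in the epicardium and in mural cells derived from it.

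Each list gives, for every summit that passed the caller's threshold, a fold enrichment over local background and a −log10 p. A region is 501 bp around a summit. The value used for it is a percentile, the rank of its strongest summit by −log10 p among all summits called in the same library. A value of 0 means that no summit was called, which is not a measurement of closed chromatin, and percentiles say nothing of the number of cells that carried an open site. Values are listed in the order replicate 1, 2 and 3 for epicardium, and for EPDCs with the E12.5 library first and the libraries of the first and second E13.5 sample after it. A difference was called when all libraries of one group lay above all libraries of the other. With 3 libraries against 3, an exact permutation test (two-sided, 20 assignments) cannot go below p = 0.10, and every called stage difference had that p. The same exact permutation test of EPDCs against the 6 epicardial libraries (84 assignments) can reach p = 0.0119.

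The libraries held 94909 to 142743 summits on chromosomes 1 to 19, X and Y, and their depth in reads is not given in the lists. E17.5 libraries had 94909, 127933 and 107429 summits against 119386, 142743 and 137871 at E11.5. The second E13.5 EPDC list merged a pair of technical replicates and covered 77.1 Mb, against 43.7 to 67.0 Mb in the other libraries. Only EPDC lists held summits off these chromosomes (252 to 268 a library), so population and the making of the lists cannot be told apart, nor can population and stage, since EPDCs came from E12.5 and E13.5. Promoters of *Pecam1*, *Cdh5*, *Tie1* and *Emcn*, defining markers of endothelium, and of *Ptprc*, *Tyrobp* and *Spi1* of blood, had no summit in any of the 9 libraries. Of 8 endothelial markers, 3 promoters were called at E11.5, 4 at E17.5 and 3 in EPDCs, with summed percentiles of 265 to 267, 297 to 334 and 259 to 265. The cardiomyocyte list of 8 had 4 to 6 promoters called at E11.5, 3 to 4 at E17.5 and 2 in EPDCs (sums of 215 to 282, 172 to 207 and 168 to 174.7), with *Myh6* and *Myl2* at 0 throughout. The blood list of 8 had 1 or 2 called in each library (sums of 70.8 to 78.7, 95.6 to 136 and 45.9 to 95.3). Epicardial promoters were called in 7 of 9 at E11.5, 9 of 9 at E17.5 and 7 of 9 in EPDCs (sums of 665 to 672, 752 to 809 and 546 to 616), and mesenchymal ones in 6 or 7, 7 or 8 and 8 of 8 (523 to 541, 566 to 608 and 627 to 655). *Upk3b*, a mesothelial gene, stood at 97.0 or above in all 6 epicardial libraries and at 73.6, 22.8 and 46.1 in EPDCs. Of the 9 epicardial promoters, 3 were lower in EPDCs (*Upk3b*, *Upk1b* and *Aldh1a2*), against 9.65% of all promoters, and none was higher. EPDCs overlapped epicardium at *Wt1*, *Tbx18*, *Tcf21*, *Pdpn*, *Krt19* and *Msln*. The part of these other cells in the results below was not tested.

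Distal regions from each direction of difference, chosen after their values were seen, were read from GRCm38.p6, the assembly of mm10, as 151 bases centred on the summit. All are given 5′ to 3′ on the plus strand and lie in introns or between genes. Capitals mark matches to RBPJ (GTGGGAA), AP-1 (TGANTCA) or TEAD (GGAATG), searched on both strands together with AGATAA, the motif of GATA factors, and the E-box bound by HES and HEY repressors (CACGTG). The first pair of regions was higher in EPDCs, the following pair was lower at E17.5, and the next pair was higher at E17.5. The last pair was lower in EPDCs.
Jag1 +15.4 kb (chr2:137101195-137101345): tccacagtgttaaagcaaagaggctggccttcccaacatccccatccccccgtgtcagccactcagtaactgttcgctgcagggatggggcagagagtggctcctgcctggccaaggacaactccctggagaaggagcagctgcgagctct
Notch2 +91.7 kb (chr3:98105114-98105264): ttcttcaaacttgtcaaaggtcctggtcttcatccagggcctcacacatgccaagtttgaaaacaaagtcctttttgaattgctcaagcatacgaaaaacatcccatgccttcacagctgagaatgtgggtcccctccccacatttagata
Dll4 −20.8 kb (chr2:119304908-119305058): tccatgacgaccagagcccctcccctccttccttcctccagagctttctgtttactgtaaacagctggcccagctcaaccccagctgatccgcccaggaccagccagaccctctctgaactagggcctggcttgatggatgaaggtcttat
Notch2 +32.9 kb (chr3:98046341-98046491): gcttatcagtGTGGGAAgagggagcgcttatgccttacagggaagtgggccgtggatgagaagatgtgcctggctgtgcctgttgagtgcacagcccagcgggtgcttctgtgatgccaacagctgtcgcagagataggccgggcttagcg
Notch2 −19.4 kb (chr3:97994055-97994205): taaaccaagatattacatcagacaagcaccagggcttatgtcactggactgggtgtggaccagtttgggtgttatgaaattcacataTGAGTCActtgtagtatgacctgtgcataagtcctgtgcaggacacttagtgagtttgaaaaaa
Notch2 +43.7 kb (chr3:98057196-98057346): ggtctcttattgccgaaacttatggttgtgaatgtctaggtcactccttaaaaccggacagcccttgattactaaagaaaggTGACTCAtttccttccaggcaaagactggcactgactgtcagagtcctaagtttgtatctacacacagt
Notch3 +60.3 kb (chr17:32106495-32106645): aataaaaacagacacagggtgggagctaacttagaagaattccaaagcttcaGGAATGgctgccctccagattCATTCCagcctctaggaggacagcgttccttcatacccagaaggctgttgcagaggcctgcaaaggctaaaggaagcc
Notch3 +49.0 kb (chr17:32117803-32117953): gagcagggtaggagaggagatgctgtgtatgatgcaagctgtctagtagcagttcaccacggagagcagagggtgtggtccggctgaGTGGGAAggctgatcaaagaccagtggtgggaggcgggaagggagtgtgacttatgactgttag
RBPJ matches stood in the *Notch2* +32.9 kb and *Notch3* +49.0 kb regions, AP-1 in *Notch2* −19.4 kb and +43.7 kb, and a pair of TEAD matches in opposite orientation in *Notch3* +60.3 kb. No motif searched occurred in the bases shown of *Jag1* +15.4 kb, *Notch2* +91.7 kb or *Dll4* −20.8 kb.

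Over the full 501 bp, RBPJ matches occurred in 34 of the 166 member regions (20.5%) and in 12.2% of all regions, and the E-box in 19 (11.4%) against 8.14%. GATA was found in 29 of the 166, against 29.8% of all regions, while AP-1 (21.7% against 22.8%) and TEAD (30.1% against 33.1%) were near the share over all regions. Member regions were richer in G and C, with a median of 52.6% against 48.3%. RBPJ matches were in 6 regions of *Notch1*, 5 of *Jag1*, 4 each of *Notch3*, *Jag2* and *Dll4*, 3 each of *Notch2* and *Hey2*, 2 each of *Dll1* and *Hey1* and 1 of *Hes1*. By direction, AP-1 was in 7 of the 20 member regions higher at E17.5, where it stood in 35.1% of all such regions, and in 7 of the 47 lower at E17.5, where it stood in 19.6%. AP-1 was in 0 of the 19 higher in EPDCs, against 16.2% of all regions higher there. RBPJ matches were in 5 of those 19, against 13.8%. These are descriptions of letters, not of bound sites.

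RefSeq promoter windows (GRCm38.p6, 250 bases before to 50 after a start site) matched 8 of the 10 genes, all but *Hey1* and *Hes1*. That of *Notch1* lay 12.8 kb inside the gene, away from the start site used here, and was left out. RBPJ letters were in the windows of 1 of the other 7, *Hey2*, and in those of 7.25% of 27025 genes. Among the 18 promoter regions of 501 bp, which cover all 10 genes, RBPJ matches were in *Notch1* +0.2 kb (2 matches), *Hey2* −0.1 kb (2), *Hey1* +0.2 kb (1) and *Hes1* +0.9 kb (1), and in none of the others. The 250 bases upstream of *Hey2*, the gene with the highest mean promoter value in each group, are shown on the gene's strand with the match in capitals.
Hey2 promoter (chr10:30842784-30843033, minus strand): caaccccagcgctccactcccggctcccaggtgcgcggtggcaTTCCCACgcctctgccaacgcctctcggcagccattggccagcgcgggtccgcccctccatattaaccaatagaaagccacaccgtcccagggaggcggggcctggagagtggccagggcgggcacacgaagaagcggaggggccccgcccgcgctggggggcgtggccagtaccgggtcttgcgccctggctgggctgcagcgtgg

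All 10 promoters, taken as the strongest summit within 1 kb of the start site, were called in all 9 libraries. Between E11.5 and E17.5, 5 of the 10 were apart, against 37.3% of the 14683 promoters tested, and all 5 were lower at E17.5, a direction found in 25.8% of all promoters: *Notch1*, *Notch2*, *Notch3*, *Dll4* and *Hey1*. This single direction depended on the setting. With equal numbers of summits, or on the log2 scale of the depth-normalized score, fewer promoters were lower and some were higher, as given at the end. EPDCs were higher than epicardium at 2, *Notch1* and *Hes1*, against 6.92% of 15196 promoters, and lower at none, against 9.65%. The median promoter difference over all promoters was −0.50 points for E17.5 minus E11.5 and −0.39 for EPDCs minus epicardium. Adjusted over all promoters (Benjamini-Hochberg, exact permutation test), the smallest p of the 10 was 0.268 between stages and 0.0908 for EPDCs, so none passed 0.05.

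**Figure D1:**
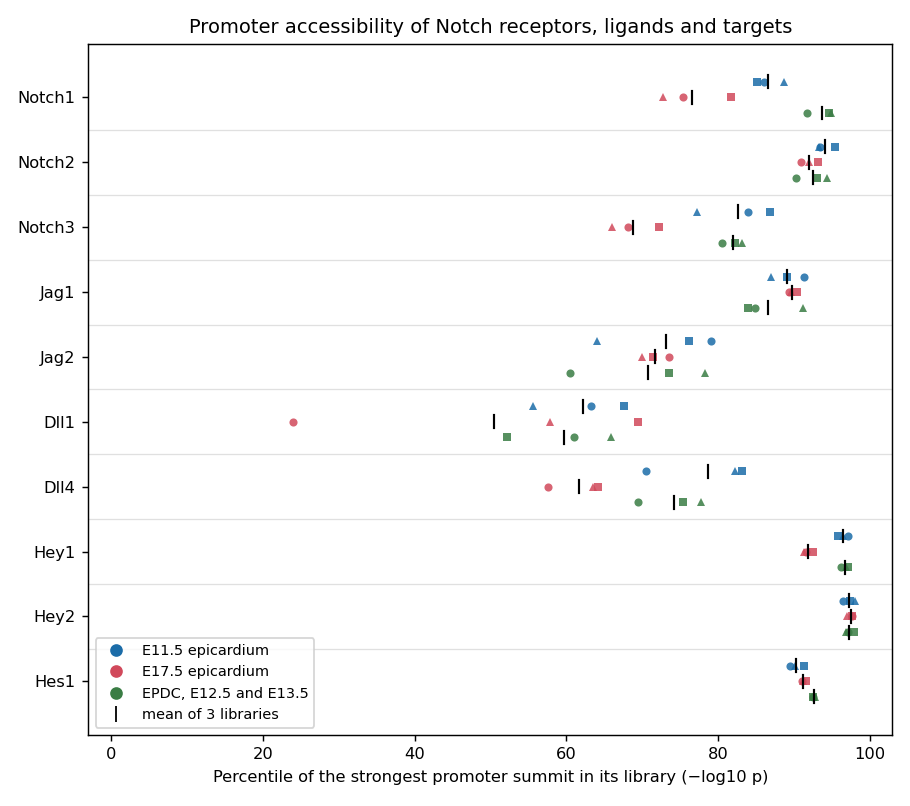
Percentile of the strongest promoter summit (horizontal axis, rank of −log10 p within a library) for the 10 genes, in 3 E11.5, 3 E17.5 and 3 EPDC libraries. Points are libraries (circle, square and triangle in the order of the text) and vertical ticks are group means; at *Notch3* and *Dll4* the E17.5 points lie below those of E11.5, and at *Notch1* the EPDC points lie above all others.

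The member regions as a whole moved much as other regions did. Of 149 member regions called in an epicardial library, 20 (13.4%) were higher at E17.5, where 12.7% of all 160863 regions were, and 47 (31.5%) were lower, where 32.1% were. Regions called in all 6 epicardial libraries had a median difference of −3.03 points over the genome, so a count of lower regions includes that shift. When the 94909 strongest summits of every library were used, the shift was −0.10 points, and of 123 member regions 21 were higher (21.3% of all regions) and 29 lower (24.5%). EPDCs were higher than epicardium in 19 of 166 member regions (11.4%, against 9.35% of all regions) and lower in 14 (8.43%, against 8.23%). With equal numbers of summits these were 20 of 136, against 14% of all regions, and 10, against 8.98%. Both directions were thus near the share over all regions. No member region passed an adjusted p of 0.05: the smallest adjusted p (exact permutation test, Benjamini-Hochberg) was 0.224 between stages and 0.0858 for EPDCs. At an unadjusted exact p under 0.05, 40 member regions and 21.7% of all regions differed between EPDCs and epicardium.

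Of the 166 regions, 60 were called in all 9 libraries (36.1%, against 25.7% of all regions) and 25 in a single library (15.1%, against 15.8%). By position, 18 were promoters, 55 lay in introns and 11 in exons of the gene itself, 58 between genes, 6 at promoters of other genes and 18 elsewhere in other genes. All 3 E17.5 libraries and none of E11.5 called 9 regions (6.04% of those tested, against 5.03% of all), and all 3 E11.5 libraries and none of E17.5 called 12 (8.05%, against 12.3%). The 12 fell to 6 with equal numbers of summits, for which no share over all regions is given. All 3 EPDC libraries and no epicardial library called 2 regions (1.2%, against 3.2%), 19.2 kb upstream of *Notch1* and 23.5 kb downstream of the *Hes1* start. All 6 epicardial libraries and no EPDC library called 2 (1.2%, against 2.15%), at *Notch1* +34.1 kb and *Notch3* −23.1 kb.

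**Figure D2:**
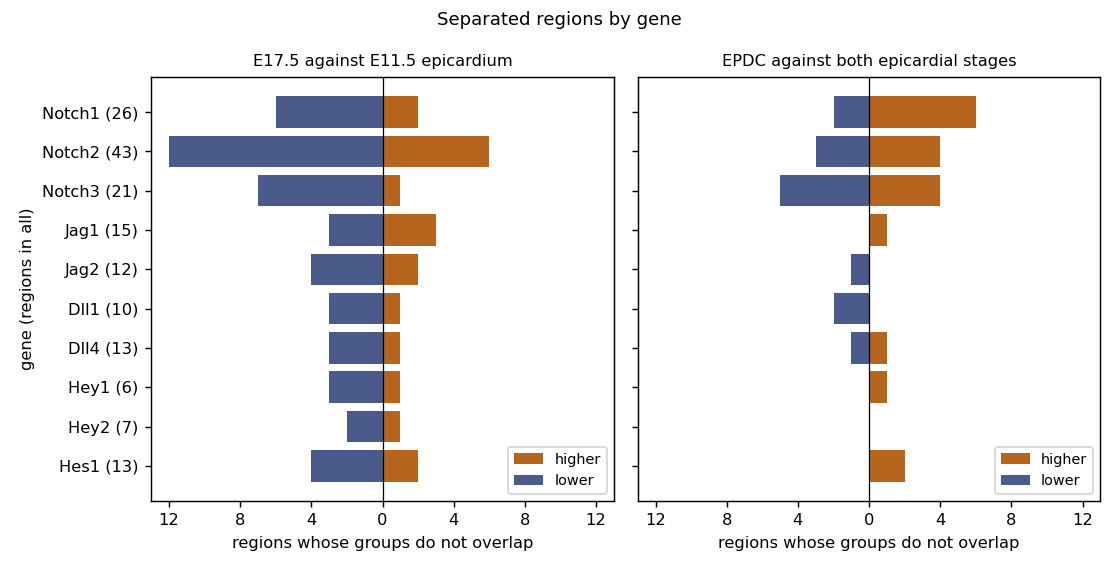
Number of regions of each gene whose groups do not overlap, higher (right) or lower (left), for E17.5 against E11.5 epicardium and for EPDCs against all 6 epicardial libraries; the number of regions of each gene is in parentheses. *Notch2*, the gene with the most regions (43), also had the most that were lower at E17.5 (12), and *Notch3* had the most that were lower in EPDCs (5).

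*Notch1* (ENSMUSG00000026923, chr2:26457903-26516663, minus strand) is a receptor with broad roles in endothelium and endocardium. Its promoter had percentiles of 86.1, 85.2 and 88.7 at E11.5, 75.4, 81.8 and 72.7 at E17.5 and 91.8, 94.6 and 94.9 in EPDCs. The 3 groups did not overlap, with E17.5 lowest and EPDCs highest. Means were 86.7 ± 1.85, 76.6 ± 4.64 and 93.8 ± 1.70 (SD, n = 3 each), a stage difference of −10.03 points and a difference of EPDCs from epicardium of 12.1 (exact permutation p = 0.0238). Ranking by fold enrichment made the stage groups overlap (difference −2.26).

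*Notch1* had 26 regions, of which 2 were higher and 6 lower at E17.5, and 6 were higher and 2 lower in EPDCs. Its strongest distal region, 71.2 kb downstream at the promoter of the neighbouring gene *Sec16a* (chr2:26445231-26445731), was at 96.6, 98.00 and 98.9 at E11.5, 97.01, 97.2 and 96.7 at E17.5 and 97.7, 98.8 and 97.8 in EPDCs, with groups that overlapped between stages. The region 19.2 kb upstream (chr2:26535567-26536067, intergenic) was at 0 in all 3 libraries at E11.5, 0 in all 3 libraries at E17.5 and 32.1, 35.7 and 44.9 in EPDCs, and so was called in EPDCs alone. Only EPDC summits placed it among the regions, so no test is given for it. Its neighbour 18.2 kb upstream (chr2:26534588-26535088), chosen after its values were seen, had 0 in all 3 libraries at E11.5, 7.04, 0 and 0 at E17.5 and 51.8, 43.1 and 60.2 in EPDCs, so only 1 epicardial library called it, weakly. In the intron at +34.1 kb (chr2:26482310-26482810) the order was opposite, with 11.1, 14.2 and 4.88 at E11.5, 24.1, 39.8 and 54.00 at E17.5 and 0 in all 3 libraries in EPDCs. This region was higher at E17.5 than at E11.5 in every library and had no EPDC summit, though EPDCs overlapped epicardium with equal numbers of summits or at a −log10 q of at least 5. The intron region at +29.2 kb (chr2:26487182-26487682), again chosen after its values were seen, had 59.3, 62.9 and 53.7 at E11.5, 24.99, 19.02 and 25.9 at E17.5 and 85.8, 84.7 and 86.8 in EPDCs. Here E17.5 was lowest and EPDCs highest, the order seen at the promoter.

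*Notch2* (ENSMUSG00000027878, chr3:98013527-98150361, plus strand) is a receptor that acts with *Notch3* in vascular smooth muscle. Its promoter stood near the top of every list, at 93.4, 95.5 and 93.3 at E11.5, 90.9, 93.2 and 91.97 at E17.5 and 90.3, 93.02 and 94.4 in EPDCs. The E17.5 values lay just below those of E11.5 (means 92.04 ± 1.15 and 94.1 ± 1.21, SD, n = 3), by a difference of −2.02 points that did not hold with equal numbers of summits (−0.82, groups overlapping) or at a −log10 q of at least 5 (−2.05) and turned to 0.08 on the log2 scale of the depth-normalized score. EPDC values overlapped those of epicardium.

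*Notch2* had 43 regions, 35 of them in its introns, with 6 higher and 12 lower at E17.5, and 4 higher and 3 lower in EPDCs. The strongest distal region, in the intron at +11.2 kb (chr3:98024481-98024981), had 92.3, 91.9 and 94.98 at E11.5, 80.5, 88.4 and 84.4 at E17.5 and 91.7, 93.98 and 93.1 in EPDCs, lower at E17.5 in every library.

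Several *Notch2* intron regions were lower at E17.5. The +91.7 kb region (chr3:98104939-98105439), whose sequence is shown above, had 52.8, 38.8 and 53.7 at E11.5, 0 in all 3 libraries at E17.5 and 82.6, 74.7 and 78.96 in EPDCs. The groups were fully apart, with EPDCs highest and no E17.5 summit (exact permutation p = 0.0238 for EPDCs against epicardium, difference 54.5 points). Fold enrichment over local background was 6.71, 5.57 and 7.401 at E11.5 and 15.7, 10.9 and 9.57 in EPDCs. The +32.9 kb region (chr3:98046166-98046666), with an RBPJ match, had 63.3, 71.7 and 69.6 at E11.5, 5.07, 0 and 0 at E17.5 and 55.2, 45.9 and 55.7 in EPDCs. The second and the third E17.5 library had no summit, and EPDCs lay between the stages. At +57.8 kb (chr3:98071118-98071618) the values were 54.5, 68.9 and 71.96 at E11.5, 0 in all 3 libraries at E17.5 and 0 in all 3 libraries in EPDCs, so a summit was present at E11.5 and in neither other group. Stage differences were −66.5 and −65.1 points for these latter regions.

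Other *Notch2* regions were higher at E17.5. The −19.4 kb region (chr3:97993880-97994380, intergenic, with an AP-1 match) had 0 in all 3 libraries at E11.5, 45.7, 62.7 and 58.5 at E17.5 and 0 in all 3 libraries in EPDCs. The intron at +95.0 kb (chr3:98108305-98108805) had 0 in all 3 libraries at E11.5, 38.9, 52.5 and 51.2 at E17.5 and 0 in all 3 libraries in EPDCs. Both were called in every E17.5 library and in no other, with stage differences of 55.7 and 47.5 points. The +43.7 kb region (chr3:98057021-98057521), which also carried an AP-1 match, had 45.8, 50.7 and 52.6 at E11.5, 83.8, 86.1 and 82.1 at E17.5 and 6.03, 0 and 0 in EPDCs. It rose with stage in epicardium and lay below all epicardial libraries in EPDCs (difference −64.8 points, exact permutation p = 0.0119, adjusted p = 0.0858). Its fold enrichment was 3.75, 4.04 and 4.41 at E11.5, 9.76, 8.72 and 8.21 at E17.5 and 2.75 in the EPDC library of E12.5, the only EPDC library with a summit there. The intron at +22.8 kb (chr3:98036090-98036590) was the reverse, at 23.3, 0 and 35.2 at E11.5, 0, 0 and 2.18 at E17.5 and 53.1, 61.3 and 68.1 in EPDCs, with EPDCs above all epicardial libraries (difference 50.7 points, exact permutation p = 0.0119).

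**Figure D3:**
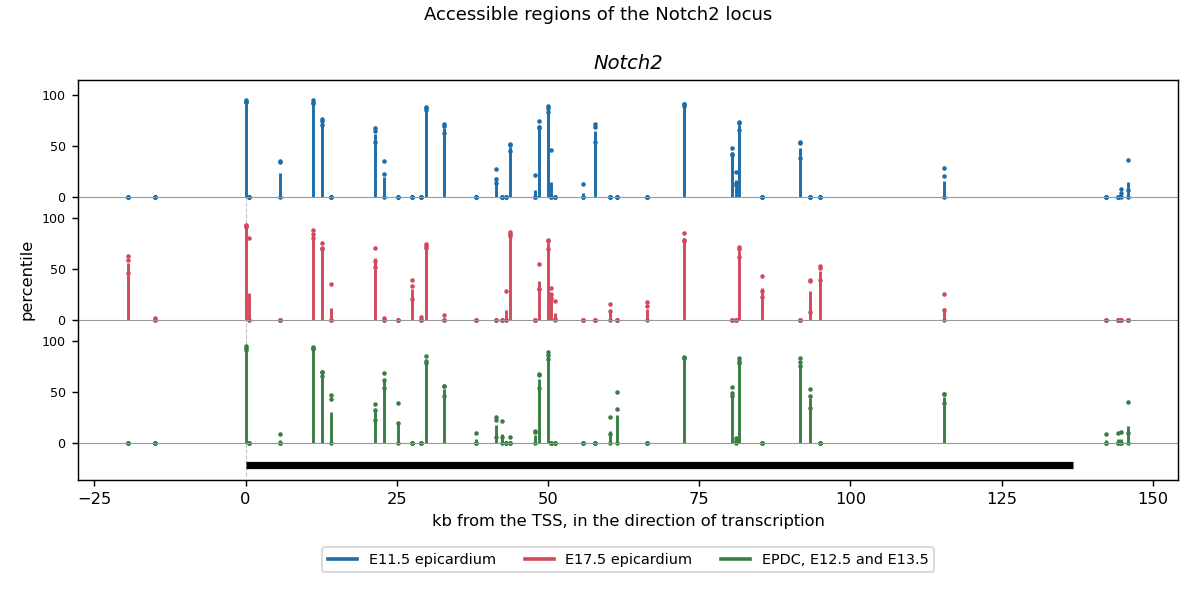
Regions of the *Notch2* locus by distance of the region's centre from the start site (kb, in the direction of transcription) and percentile (vertical axis, a separate scale from 0 to 100 for each group), for E11.5 (top), E17.5 (middle) and EPDCs (bottom). Lines are means of 3 libraries, points are libraries and the black bar is the gene; the +91.7 kb line is absent at E17.5, and the −19.4 and +95.0 kb lines are present at E17.5 alone.

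*Notch3* (ENSMUSG00000038146, chr17:32120820-32166852, minus strand) is the receptor most characteristic of pericytes and vascular smooth muscle, which derive in part from the epicardium. Its promoter was at 83.99, 86.8 and 77.2 at E11.5, 68.1, 72.2 and 66.01 at E17.5 and 80.5, 82.3 and 83.2 in EPDCs. All E17.5 libraries lay below all E11.5 libraries (means 68.8 ± 3.16 and 82.7 ± 4.96, SD, n = 3, difference −13.9 points), and EPDCs overlapped epicardium. With equal numbers of summits the stage groups overlapped (difference −11.6). A second summit region of the promoter, at +0.7 kb (chr17:32165864-32166364) and chosen after its values were seen, had 57.9, 58.6 and 53.8 at E11.5, 0, 8.04 and 14.9 at E17.5 and 61.8, 63.03 and 73.2 in EPDCs, so it was weak or not called at E17.5 and highest in EPDCs, the groups being apart in both comparisons.

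*Notch3* had 21 regions, of which 1 was higher and 7 lower at E17.5, and 4 higher and 5 lower in EPDCs. The strongest distal region, at +66.5 kb in an intron of *Pdxk-ps* (chr17:32100084-32100584), had 92.1, 88.3 and 86.99 at E11.5, 84.2, 86.1 and 87.6 at E17.5 and 74.7, 69.3 and 84.8 in EPDCs, with EPDCs overlapping epicardium. Downstream of the gene, at +49.0 kb (chr17:32117628-32118128, an intron of *Gm17276*, with an RBPJ match), values were 89.5, 89.2 and 88.6 at E11.5, 87.9, 90.2 and 88.1 at E17.5 and 49.6, 57.3 and 64.2 in EPDCs. The epicardial libraries differed by less than 3 points over both stages, and EPDCs lay lower by a difference of −31.9 (exact permutation p = 0.0119). The region at +60.3 kb (chr17:32106320-32106820), with a pair of TEAD matches, was likewise lower in EPDCs, at 45.7, 65.8 and 73.1 at E11.5, 56.7, 66.9 and 61.2 at E17.5 and 0, 38.2 and 43.3 in EPDCs (exact permutation p = 0.0119), though EPDCs overlapped epicardium when ranked by fold or at a −log10 q of at least 5.

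A pair of regions upstream of *Notch3* was higher in EPDCs. The regions at −6.5 kb (chr17:32173133-32173633) and −13.0 kb (chr17:32179601-32180101), both intergenic and chosen after their values were seen, had 55.9, 63.8 and 70.4 at E11.5, 62.4, 54.6 and 38.01 at E17.5 and 93.5, 92.9 and 92.9 in EPDCs, and 44.5, 46.6 and 57.4 at E11.5, 8.25, 33.03 and 15.2 at E17.5 and 78.3, 84.1 and 89.8 in EPDCs. In both, every EPDC library exceeded every epicardial library. The −23.1 kb region (chr17:32189727-32190227), at the promoter of *Ephx3*, was at 40.4, 18.8 and 23.6 at E11.5, 2.47, 30.7 and 30.8 at E17.5 and 0 in all 3 libraries in EPDCs, called in all 6 epicardial libraries and in no EPDC library, and the populations overlapped there with equal numbers of summits, at a −log10 q of at least 5 and when any overlapping interval counted.

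*Jag1* (ENSMUSG00000027276, chr2:137081456-137116644, minus strand) is the ligand most often tied to smooth muscle and epicardial Notch activity. Its promoter was at 91.3, 89.1 and 86.95 at E11.5, 89.3, 90.4 and 89.6 at E17.5 and 84.9, 83.9 and 91.2 in EPDCs, and the groups overlapped in both comparisons. Of 15 regions, 3 were higher and 3 lower at E17.5, 1 was higher in EPDCs and none lower. That region, in the intron at +15.4 kb (chr2:137101020-137101520), had 0 in all 3 libraries at E11.5, 22.1, 15.03 and 5.84 at E17.5 and 62.3, 67.05 and 72.7 in EPDCs. It had no summit at E11.5, weak ones at E17.5 and its highest values in EPDCs, a gain larger than that of *Notch2* +91.7 kb as ranked here and smaller with equal numbers of summits or on the log2 score scale (difference 60.2 points, exact permutation p = 0.0119, adjusted p = 0.0858). Fold enrichment there was 5.22, 4.12 and 3.42 at E17.5 and 9.45, 8.79 and 9.04 in EPDCs. The stage difference did not hold with equal numbers of summits or at a −log10 q of at least 5, the EPDC difference did.

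The strongest distal region of *Jag1*, in the intron at +1.9 kb (chr2:137114524-137115024), had 79.5, 75.3 and 76.6 at E11.5, 65.4, 78.9 and 74.3 at E17.5 and 75.6, 85.7 and 84.9 in EPDCs, with overlapping groups. At +48.8 kb (chr2:137067637-137068137, an exon of *Slx4ip*), values were 0, 14.96 and 0 at E11.5, 42.1, 50.3 and 26.8 at E17.5 and 4.89, 55.05 and 54.7 in EPDCs, a stage difference of 34.7 points. The EPDC libraries disagreed there, with E12.5 near E11.5 and both E13.5 samples above every epicardial library.

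*Jag2* (ENSMUSG00000002799, chr12:112907819-112929776, minus strand) and *Dll1* (ENSMUSG00000014773, chr17:15367354-15376872, minus strand) had promoter values, taken as the strongest summit within 1 kb, that overlapped in every comparison. *Jag2* was at 79.1, 76.2 and 64.1 at E11.5, 73.5, 71.4 and 70.02 at E17.5 and 60.4, 73.6 and 78.2 in EPDCs. *Dll1* had the lowest mean promoter value of the 10 genes in each group, at 63.3, 67.5 and 55.7 at E11.5, 24.04, 69.4 and 57.8 at E17.5 and 61.1, 52.3 and 65.9 in EPDCs. In its first E17.5 replicate the strongest summit near the start lay just outside 1 kb, in a region at 61.1 in that library, so the low promoter value there followed from the 1 kb limit. *Jag2* had 12 regions, 2 higher and 4 lower at E17.5 and 1 lower in EPDCs. *Dll1* had 10 regions, 1 higher and 3 lower at E17.5 and 2 lower in EPDCs. The strongest distal region of *Jag2*, 20.8 kb upstream (chr12:112950330-112950830, intergenic), was at 94.6, 95.3 and 97.2 at E11.5, 95.4, 97.1 and 97.1 at E17.5 and 91.8, 91.5 and 95.2 in EPDCs, and that of *Dll1*, 19.3 kb upstream at the promoter of *Fam120b* (chr17:15395963-15396463), was at 96.5 or above in every library. Groups overlapped in both comparisons at both regions.

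*Dll4* (ENSMUSG00000027314, chr2:119325784-119335962, plus strand) is the ligand of sprouting and arterial endothelium. Its promoter was at 70.5, 83.2 and 82.2 at E11.5, 57.6, 64.1 and 63.5 at E17.5 and 69.5, 75.3 and 77.8 in EPDCs. E17.5 was lowest, with a difference of −16.9 points from E11.5 (means 61.7 ± 3.62 and 78.6 ± 7.05, SD, n = 3), larger than that of *Notch3* except when ranked by fold enrichment, and it kept this direction without overlap under every alternative ranking and threshold. The region 20.8 kb upstream (chr2:119304733-119305233, intergenic) moved with it, at 59.3, 68.7 and 68.7 at E11.5, 0, 21.4 and 0 at E17.5 and 72.01, 70.3 and 76.9 in EPDCs. E11.5 and EPDC libraries lay at 59.3 or above, and 2 of 3 E17.5 libraries had no summit. The strongest distal region, at +12.3 kb (chr2:119337797-119338297), was at 93.3, 95.2 and 92.8 at E11.5, 91.6, 94.3 and 93.3 at E17.5 and 90.3, 90.1 and 94.01 in EPDCs with overlapping groups, so the drop at the promoter was not shared by all of the locus. In all, 1 of its 13 regions was higher and 3 were lower at E17.5, and 1 was higher and 1 lower in EPDCs. The endothelial promoters *Pecam1*, *Cdh5*, *Tie1* and *Emcn* had no summit in any library, as given above, *Erg* was lower at E17.5 as *Dll4* was, and *Egfl7* was called at E17.5 alone. *Kdr* (88.1 to 93.2) and *Tek* (78.9 to 85.8) were called in all 9 libraries, with stage groups that overlapped, and *Kdr* was higher in EPDCs.

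*Hey1* (ENSMUSG00000040289, chr3:8663359-8667256, minus strand) encodes a repressor that Notch induces in endothelium and endocardium. The promoter was among the strongest of each library, at 97.2, 95.8 and 96.5 at E11.5, 91.7, 92.5 and 91.4 at E17.5 and 96.3, 97.1 and 96.9 in EPDCs, and E17.5 was lower than E11.5 by a difference of −4.64 points (means 91.8 ± 0.567 and 96.5 ± 0.692, SD, n = 3), with overlapping groups on the log2 score scale. Of its 6 regions, 1 was higher and 3 were lower at E17.5, and 1 was higher in EPDCs.

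*Hey2* (ENSMUSG00000019789, chr10:30832359-30842801, minus strand), a related repressor that also marks compact ventricular myocardium, had a promoter that varied little, at 96.5, 97.4 and 98.1 at E11.5, 97.7, 97.7 and 97.1 at E17.5 and 97.1, 97.98 and 96.9 in EPDCs. The groups overlapped in both comparisons, and all 9 values lay between 96.5 and 98.1. The region at +31.7 kb (chr10:30810824-30811324, intergenic), its strongest distal one, was at 89.3, 92.5 and 92.03 at E11.5, 84.6, 85.6 and 86.01 at E17.5 and 80.5, 82.7 and 90.1 in EPDCs, lower at E17.5 by a difference of −5.86 points. Of 7 regions 1 was higher and 2 were lower at E17.5, and none separated EPDCs from epicardium.

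*Hes1* (ENSMUSG00000022528, chr16:30064384-30067796, plus strand) encodes a repressor that is a direct Notch target in many tissues and responds to other signals too. Its promoter was at 89.5, 91.3 and 90.2 at E11.5, 91.03, 91.5 and 91.2 at E17.5 and 92.5, 92.6 and 92.8 in EPDCs. EPDCs lay above all epicardial libraries, but by 1.83 points only (means 92.6 ± 0.185, n = 3, and 90.8 ± 0.787, n = 6, SD, exact permutation p = 0.0119), and the groups overlapped with equal numbers of summits, with fold ranks and on the log2 score scale. The strongest distal region, at +6.0 kb (chr16:30070084-30070584), was at 90.8, 93.1 and 90.2 at E11.5, 87.4, 92.2 and 91.7 at E17.5 and 94.00, 93.6 and 92.7 in EPDCs with overlapping groups. The region at +23.5 kb (chr16:30087642-30088142, intergenic) was called in EPDCs alone, at 0 in all 3 libraries at E11.5, 0 in all 3 libraries at E17.5 and 23.9, 31.4 and 63.9 in EPDCs, and its highest value came from the merged E13.5 library. *Hes1* had 13 regions, 2 higher and 4 lower at E17.5 and 2 higher in EPDCs. Its promoter values for E11.5 replicates 2 and 3 came from the region at +0.9 kb, and all others from −0.3 kb. These promoter regions, chosen after their values were seen, moved in opposite directions between stages. The −0.3 kb region was higher at E17.5 (mean 91.2, against 89.04 at E11.5) and in EPDCs (92.6). The +0.9 kb region, with an RBPJ match, was lower at E17.5 (84.8, against 89.6 at E11.5). EPDCs (83.1) lay below E11.5 there and overlapped E17.5.

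**Figure D4:**
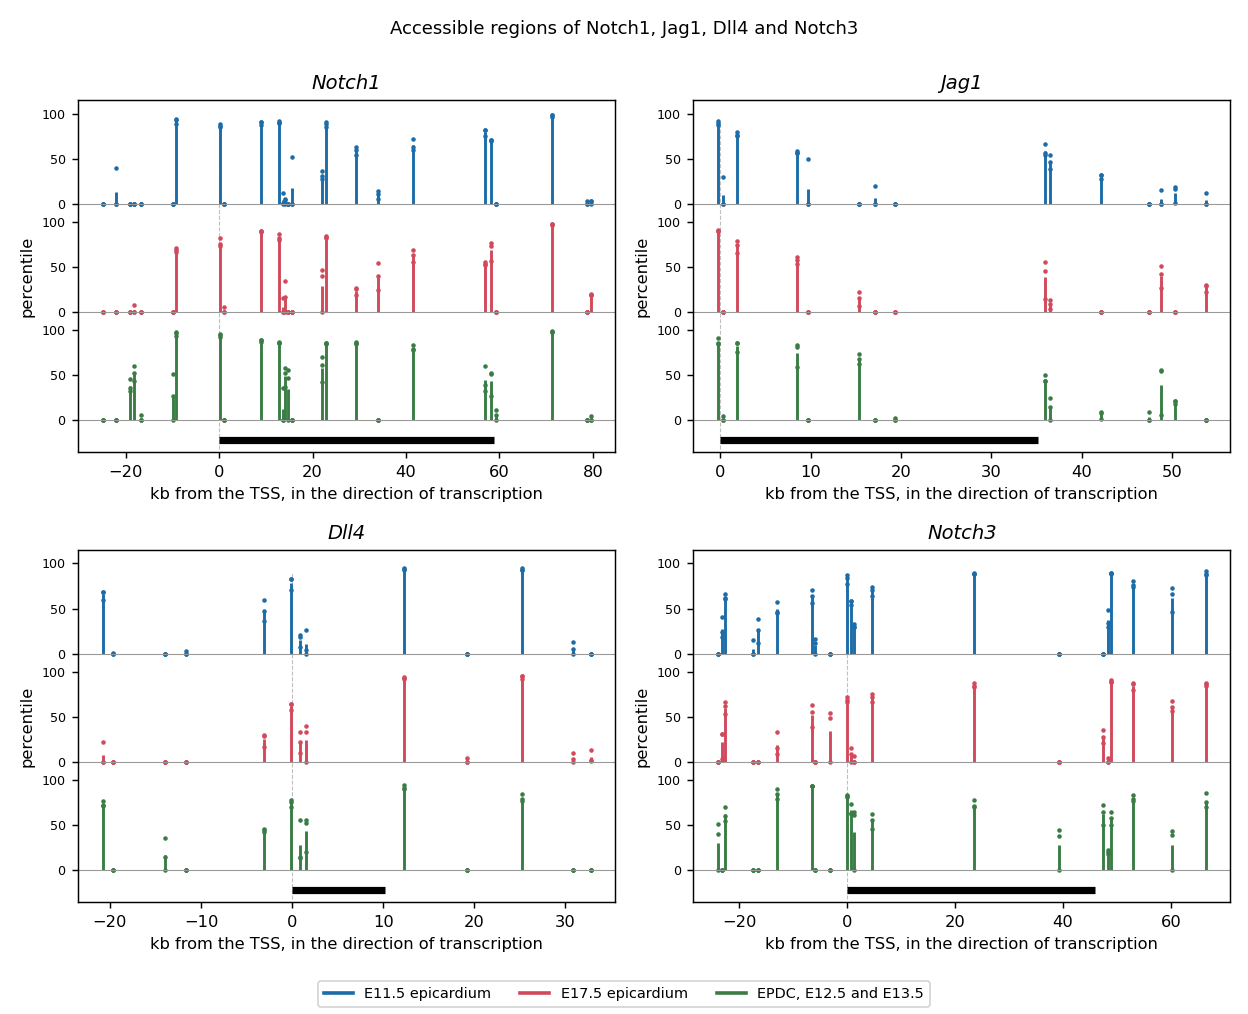
Regions of *Notch1*, *Jag1*, *Dll4* and *Notch3* by distance from the start site (kb, in the direction of transcription) and percentile, drawn as for *Notch2* with E11.5 at the top, E17.5 in the middle and EPDCs at the bottom. The *Jag1* +15.4 kb line is tall in EPDCs alone, the *Dll4* −20.8 kb line is short at E17.5, and the *Notch3* −6.5 and −13.0 kb lines are tallest in EPDCs.

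**Figure D5:**
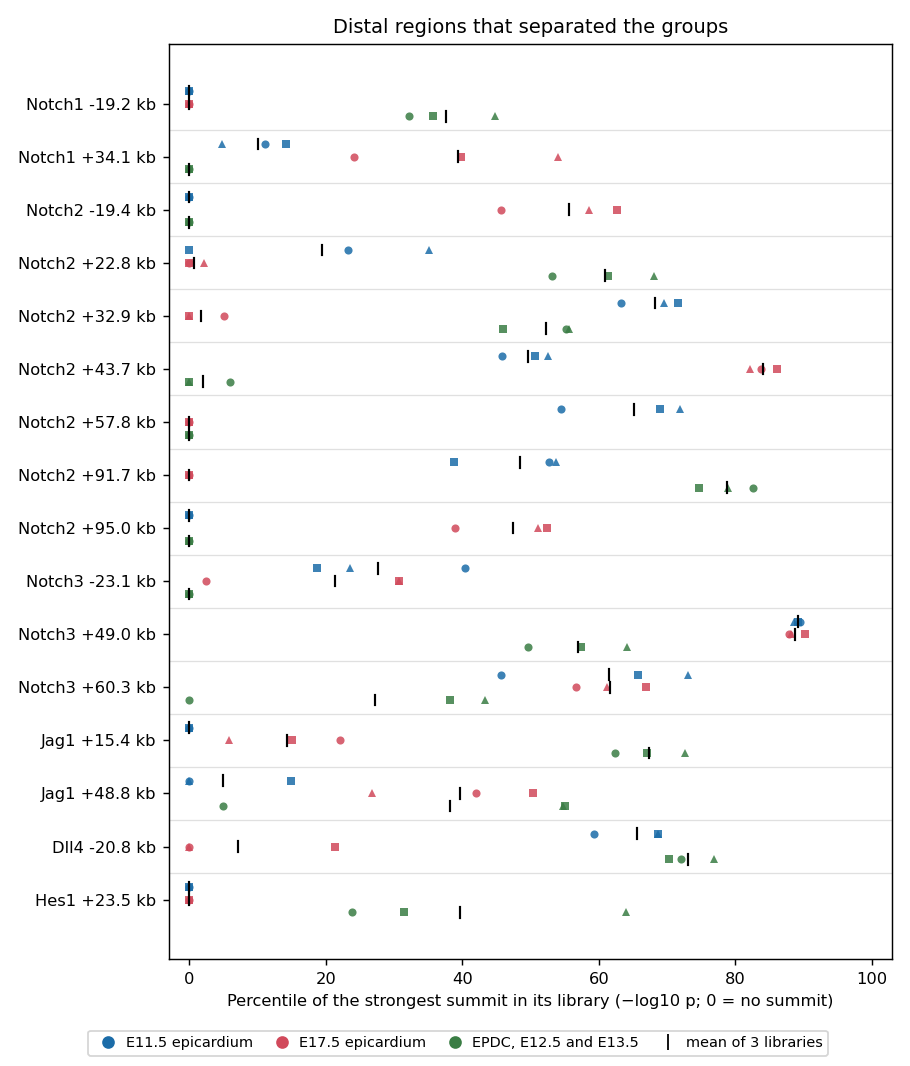
Percentile (horizontal axis, 0 where no summit was called) of the distal regions described above whose groups were apart, in 9 libraries, with group means as ticks. E17.5 and EPDC points fall on opposite sides of E11.5 at *Notch1* +34.1 kb, *Notch2* +43.7 kb, *Notch2* +91.7 kb and *Dll4* −20.8 kb.

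Among 32 further genes of the pathway, 31 had a promoter summit in at least 1 library, all but *Hes7*. At E17.5, 5 promoters were higher and 5 lower, 10 of 32 apart against 37.3% of all promoters, and in EPDCs 1 was higher and 5 lower, against 6.92% and 9.65%. *Psen2*, a catalytic subunit of γ-secretase, was at 0 in all 3 libraries at E11.5, 42.8, 60.8 and 47.1 at E17.5 and 0 in all 3 libraries in EPDCs, called at E17.5 alone. *Aph1a*, a subunit of the same complex, was also higher at E17.5, by 1.49 points, as was the non-canonical ligand *Dlk1* (7.06). The target *Hes5* was lower at E17.5, at 58.99, 55.03 and 55.8 at E11.5, 5.13, 28.3 and 23.4 at E17.5 and 53.2, 44.6 and 65.1 in EPDCs, and the E17.5 libraries lay far below the other groups. *Dtx1* (−17.98), *Dll3* (−8.49), *Dtx2* (−2.26) and the coactivator *Maml1* (−0.675) were lower too. In EPDCs the receptor *Notch4* was higher, at 45.3, 48.7 and 42.7 at E11.5, 43.3, 29.5 and 37.6 at E17.5 and 57.9, 70.4 and 76.8 in EPDCs. *Mfng*, a glycosyltransferase that modifies Notch receptors, was lower, at 66.6, 75.2 and 72.7 at E11.5, 56.7, 81.2 and 68.2 at E17.5 and 48.7, 38.2 and 39.1 in EPDCs. *Dlk1* (−7.37), *Ncstn* (−2.35), *Aph1a* (−2.39) and *Fbxw7* (−0.595) were lower in EPDCs by smaller differences.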

How the data were processed

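Bulk ATAC-seq of sorted cells was measured in 10 samples, for which 9 peak lists were used, since both technical replicates of 1 E13.5 EPDC sample share a list. The authors ran the nf-core atacseq pipeline against mm10, with MACS2 2.2.9.1 as peak caller on paired fragments, keeping every summit at a q-value of 0.01 or below. For each summit the deposited lists give a fold enrichment (a ratio to local background), a −log10 p-value and a −log10 q-value, not normalized between libraries. Whole fragments were piled up, so a peak spans the sequence between cuts.

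Summits on chromosomes 1 to 19, X and Y were ranked by −log10 p within a library. Windows of 501 bp around summits were thinned by the iterative removal of the study's methods, strongest depth-normalized score first, and each summit went to the nearest kept window within 500 bp. Gene starts came from GENCODE release M21. Groups were compared by exact permutation tests with Benjamini-Hochberg adjustment over all regions or promoters, and a call meant groups without overlap. Motif shares were not tested. Scripts used Python 3.11.15, numpy 2.4.6, pandas 2.3.3 and scipy 1.17.1, and were tested on simulated lists. Each SD rests on 3 libraries (6 for epicardium as a whole), and read depth is not given in the lists.

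Named were all 10 promoters, the strongest distal region of each gene, the 3 called regions of largest difference in each direction, regions of a single population, and called promoters of 32 further pathway genes. Some of these items are not reported here. Regions outside this rule are marked in the text. Members and lists were chosen with earlier results of these data known. Alternatives were equal numbers of summits, a −log10 q of at least 5, fold ranks, log2(depth-normalized score + 1), summits inside the window, any overlapping interval, 10 and 50 kb around genes, 500 bp around start sites, a replicate block, and leaving out single libraries. Replicate numbers did not pair E11.5 with E17.5 libraries (same-number correlations of −0.05 to 0.09), and independent pools were sampled.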

Additional observations from a re-analysis of the deposited data

How the results depend on the processing

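Counts of member regions changed with the choice of summits, distance and libraries. With equal numbers of summits, 29 regions were lower at E17.5 in place of 47, 6 were called in all E11.5 and no E17.5 libraries in place of 12, 1 in all epicardial and no EPDC libraries in place of 2, and mean member summits fell from 125 to 92 at E11.5 and from 114.7 to 100 in EPDCs. At 10 kb around genes, 11 regions were higher at E17.5 and 9 lower in EPDCs, and at 50 kb 76 were lower at E17.5 and 24 lower in EPDCs. A −log10 q of at least 5 left 9 lower in EPDCs. Promoters lower at E17.5 numbered 3 with equal numbers and on the log2 score scale. Promoters higher at E17.5, 0 as reported, numbered 1 with equal numbers, 2 on the log2 score scale and 2 within 500 bp of the start site. Promoters higher in EPDCs numbered 1 with equal numbers, fold ranks and the log2 score. The *Notch2* promoter difference turned from −2.02 points to 0.0775 on the log2 score scale. Apart from the 29, these counts of regions and promoters have no share over all regions or promoters beside them. The number of member regions also changes with the distance, so the counts are not read against that background. The cause of these changes was not tested, apart from fewer summits or another distance where the setting itself sets that.

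Leaving out a library can only add calls, since groups that do not overlap stay apart in any subset. Regions higher at E17.5 ranged from 20 to 36 (36 without the first E17.5 replicate, which had the fewest summits, or 24.5% against 19.5% of all regions), regions higher in EPDCs from 19 to 37 (37 without the E12.5 library, or 22.3% against 17.1%) and regions lower in EPDCs from 14 to 24 (24 without the merged E13.5 library, or 14.8% against 12.7%). Promoters higher at E17.5 ranged from 0 to 1, as did promoters lower in EPDCs.

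The replicate number as a block, which the data gave no reason to use, called 23 regions higher and 50 lower at E17.5, and 1 promoter higher and 5 lower. No share over all regions or promoters is given under that block, so these counts are not read against one. Over the other settings, called differences of single promoters and named regions kept direction and call in 185 instances, lost the call in 17 and reversed in 1, the *Notch2* promoter above. With 3 libraries a group, stage differences could not reach p = 0.05 in an exact test. Weak summits near the threshold, such as those with percentiles under 10, depend on depth, which the lists do not give.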
